A study of Mus musculus with 13 samples.

Results

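The response of MEK1-deficient haematopoietic stem cells (HSCs) to 5-fluorouracil (5-FU) was followed in 6 of the 13 mouse libraries of the series, and 12846 genes could be tested. The members were taken by genotype and treatment alone: 3 libraries of untreated KO cells (D4, D5 and D6) and 3 of KO cells from 5-FU treated mice (A5, A6 and A8). The remaining 7 libraries, 3 of untreated wild-type (WT) cells (D1, D2 and D3) and 4 of WT cells after 5-FU (A2, A3, A4 and D4), served for the estimate of the spread and for the comparison of the responses at the end. Each library held the polyadenylated RNA of 100 cells sorted from bone marrow as HSCs and amplified by Smart-seq2, a method for whole transcripts of a few cells that leaves the strand unmarked. KO cells are labelled as MEK1 deficient and carry that deficiency in both treatment groups. The sources used here do not give the allele, the driver of the deletion, the age of the mice, the dose of 5-FU or the time of collection.

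HSCs sit at the top of the blood system, divide rarely and keep both themselves and every blood lineage going. 5-FU is a pyrimidine analogue that blocks thymidylate synthesis and enters RNA and DNA, so it kills dividing blood cells, and the HSCs that survive are driven into division before they return to rest. MEK1, encoded by Map2k1, and its close relative MEK2, encoded by Map2k2, are the kinases that phosphorylate and activate the ERK kinases, which carry signals from cytokine receptors such as KIT to immediate-early genes such as Fos and to feedback inhibitors such as the DUSP phosphatases. The comparison asks what 5-FU treatment changed in HSCs that lack MEK1.

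KO libraries held 17532975, 19942527 and 15544452 reads in untreated D4, D5 and D6 and 11947917, 13750777 and 13656119 reads in treated A5, A6 and A8. Genes with at least 1 read numbered 12223 to 12282 without and 12456 to 12615 with 5-FU, and mitochondrial genes took 4.41% to 5.188% and 4.232% to 5.513% of the reads. Pearson correlations between libraries, across genes on the deposited log2 scale, were 0.94 to 0.943 among untreated and 0.966 to 0.977 among treated KO libraries. The labels give an acquisition year of 2015 for all untreated and of 2016 for all treated KO libraries, on the same flowcell, so year and treatment cannot be told apart within KO. Whether the libraries of 1 group stem from different mice is not labelled, so p-values measure only the spread between these libraries. In bulk RNA of sorted cells, fewer cells of a type and less RNA per cell cannot be told apart.

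**Figure D1:**
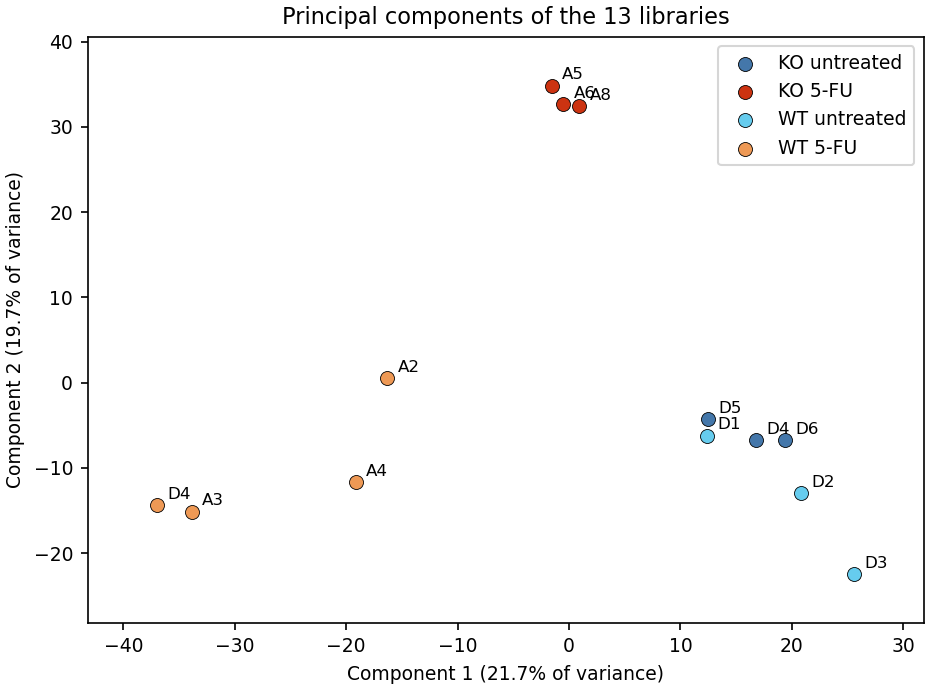
Scores of the 13 libraries on the first (x axis) and second (y axis) principal components of the deposited log2 values of 12846 genes, with the share of the variance on each axis label and each point 1 library. The 3 treated KO libraries lie between 32.46 and 34.83 on the second component, and no other library lies above 0.51.

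After 5-FU, 761 genes of KO cells (5.92% of those tested) passed the threshold (limma, Benjamini-Hochberg adjusted p below 0.05), 357 of them (2.78%) higher and 404 (3.14%) lower in treated cells. Of the 761 genes, 758 had no overlap between the 3 treated and the 3 untreated libraries, against 28.8% of all genes tested. The genes were called on these same libraries, so this count is no separate support for the calls. The median log2 difference over all genes was −0.01. On the deposited scale 290 genes changed by at least 2-fold, 95 upward and 195 downward. Log2 differences here are on the deposited variance-stabilized scale, which compresses differences of low genes, while folds are ratios of the group means of normalized counts. Normalized counts are given in the order D4, D5, D6 for untreated and A5, A6, A8 for treated KO cells, and "rose" and "fell" refer to genes past the threshold.

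The count of 761 was sensitive to the libraries and to the date. It was 356 without treated A5 and also 356 without treated A6, 468 without A8, 444 without untreated D4, 630 without D5, 449 without D6 and 979 without untreated WT D1, which enters only the estimate of the spread. In all 6 fits that left out 1 KO library, 265 genes were called, 118 higher and 147 lower. With the acquisition year as a term in the fit, which rests on 1 treated WT library labelled 2015, 7 genes stayed past the threshold, among them Txnip, while all 761 differences kept their sign and the median standard error rose from 0.24 to 0.426. Of 186 called genes that the naming rule picked, 91 stayed called in every alternative fit apart from the year term.

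**Figure D2:**
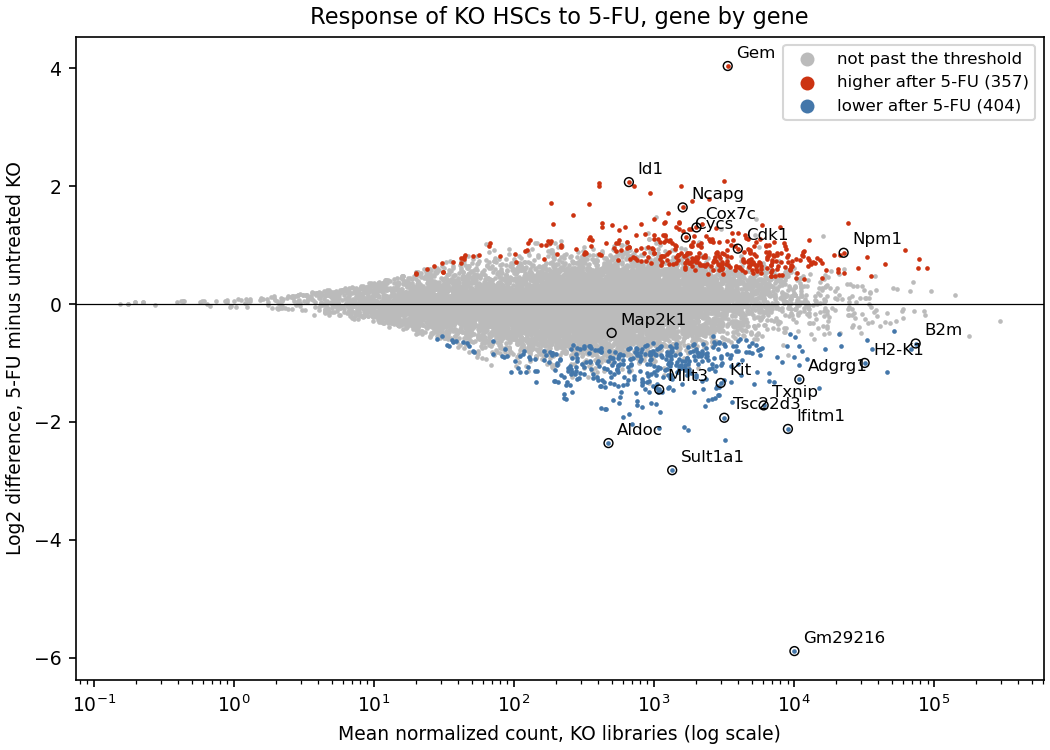
Log2 difference of each of the 12846 genes tested (5-FU minus untreated KO, y axis) against the mean normalized count over the 6 KO libraries (x axis, log scale), each point 1 gene. Coloured points are the 357 higher and 404 lower genes past the threshold, and labelled points are genes described in the text.

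Map2k1, the gene that encodes the missing kinase, gave 611, 750 and 545 normalized counts in untreated and 328, 460 and 304 in treated KO libraries. Every treated library lay below every untreated one, and the log2 difference of −0.49 did not pass (limma, adjusted p = 0.383), with an exact two-sided permutation p of 0.1, the smallest that 3 against 3 libraries can give. With the year term the difference was 0.18. Mean counts were 635.1 in untreated KO against 1260 in untreated WT cells, and 364 against 1100 after 5-FU. Counts of the WT libraries ranged from 584 to 1770, and the lowest of them lay within the range of the untreated KO libraries. The labels do not say which exons were deleted, so reads on the rest of the gene are no check of the deletion. Its partner Map2k2 differed by 0.04 on the log2 scale (adjusted p = 0.935, limma) and Mapk3, which encodes ERK1, by −0.30 (adjusted p = 0.657). Of 18 genes of the MEK and ERK cascade, 1 rose, Ptpn11, which encodes the phosphatase SHP2, and 1 fell, the kinase gene Braf, with a list median of 0.08. Both calls were lost in 5 of the 6 fits that left out 1 KO library (highest adjusted p 0.0932 without untreated D4 and 0.16 without treated A8), that of Braf also with quantile scaling and limma-voom, and without A5, A6 or D4 the list had 0 calls.

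Genes that ERK is known to switch on did not move one way. Of 25 tested ERK target and feedback genes, 3 rose and 4 fell, with a median of 0.02. Dusp2, which encodes a phosphatase that inactivates ERK, gave 1794, 1374 and 1019 normalized counts without and 396, 404 and 406 with 5-FU. The treated libraries were nearly equal and all below the untreated ones, a 3.47-fold lower mean (log2 difference −1.22, SE 0.20; limma, adjusted p = 0.00208). The immediate-early response gene Ier3 gave 982, 1002 and 1413 counts without and 340, 202 and 385 with 5-FU (log2 difference −1.22; limma, adjusted p = 0.00409). Fos, a subunit of the AP-1 transcription factor, gave 1867, 1355 and 644 counts in untreated and 191, 7.07 and 131 in treated libraries, an 11.7-fold lower mean. Its call (log2 difference −2.04; limma, adjusted p = 0.00307) was lost with limma-voom on the recovered reads (adjusted p = 0.103). In the other direction Ccnd1, which encodes cyclin D1 and drives entry into the cell cycle, gave 553, 280 and 398 counts without and 1314, 1337 and 1324 with 5-FU, 3.23-fold higher on average (log2 difference 1.19; limma, adjusted p = 0.00827, and 0.0502 on log2 counts with a pseudocount of 0.5). Etv4, which encodes an ETS factor, was at 0 in the 3 untreated libraries and at 73.9, 61.3 and 48.1 normalized counts in the treated ones (limma, adjusted p = 0.0035).

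Genes known to mark and maintain HSCs were mostly lower after 5-FU. Of 49 tested HSC identity genes, 13 fell and 1 rose, against 3.14% and 2.78% of all genes, and the list median was −0.40. Leaving out single KO libraries kept 11 to 13 of the list called. Kit, the receptor of stem cell factor, gave 4495, 3895 and 4989 normalized counts in untreated and 1572, 1606 and 1428 in treated KO cells. The libraries of each group were close together, 2.90-fold apart on average (log2 difference −1.34, SE 0.22; limma, adjusted p = 0.00195).

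Adgrg1, an adhesion G protein-coupled receptor gene also known as Gpr56 and used as an HSC marker, gave 18444, 12693 and 15991 normalized counts without and 6176, 6393 and 5953 with 5-FU. The mean was 2.54-fold lower, with no overlap (log2 difference −1.28, SE 0.15; limma, adjusted p = 0.000253). Mllt3, a regulator of HSC maintenance, gave 1838, 1365 and 2053 counts without and 481, 301 and 514 with 5-FU, a 4.06-fold lower mean (log2 difference −1.45; limma, adjusted p = 0.00324). Ly6a, which encodes the sorting marker Sca-1, fell by 0.94 on the log2 scale (limma, adjusted p = 0.00887). The single gene of the list that rose was Cd48, a surface protein that marks progenitors and is absent from the most primitive HSCs. Its normalized counts were 1.84, 231 and 196 without and 1759, 782 and 1367 with 5-FU (log2 difference 2.01; limma, adjusted p = 0.014), and the call was lost in 8 alternative fits: without A5, without A8, without D4, with limma-voom, on log2 counts with a pseudocount of 0.5, 1 or 5 and with TMM scaling (highest adjusted p 0.223).

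The identity of the sorted cells was checked on HSC markers, and the 7 given here had reads in all 6 KO libraries. Beside Kit and Ly6a, these were Procr, Slamf1, Hlf, Mecom and Fgd5, and none of the latter 5 passed. Normalized counts of Procr, which encodes the receptor EPCR, were 398 to 746 without and 196 to 265 with 5-FU (adjusted p = 0.126, limma), and those of Slamf1, which encodes CD150, were 1910 to 2560 and 1250 to 1950 (adjusted p = 0.443). Hlf, a transcription factor gene of HSCs, differed by −0.79 on the log2 scale (limma, adjusted p = 0.0651). The progenitor marker gene Flt3 gave 112 to 518 counts without and 27.1 to 54.6 with 5-FU (limma, adjusted p = 0.0537), and Cd27, a receptor gene of multipotent progenitors, fell by 1.20 on the log2 scale (limma, adjusted p = 0.000459). In the list of lymphoid and multipotent progenitor genes, 2 of 10 tested members rose and 3 fell, 5 calls in all that numbered 2 without A5 and 3 without A6, A8 or D4.

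**Figure D3:**
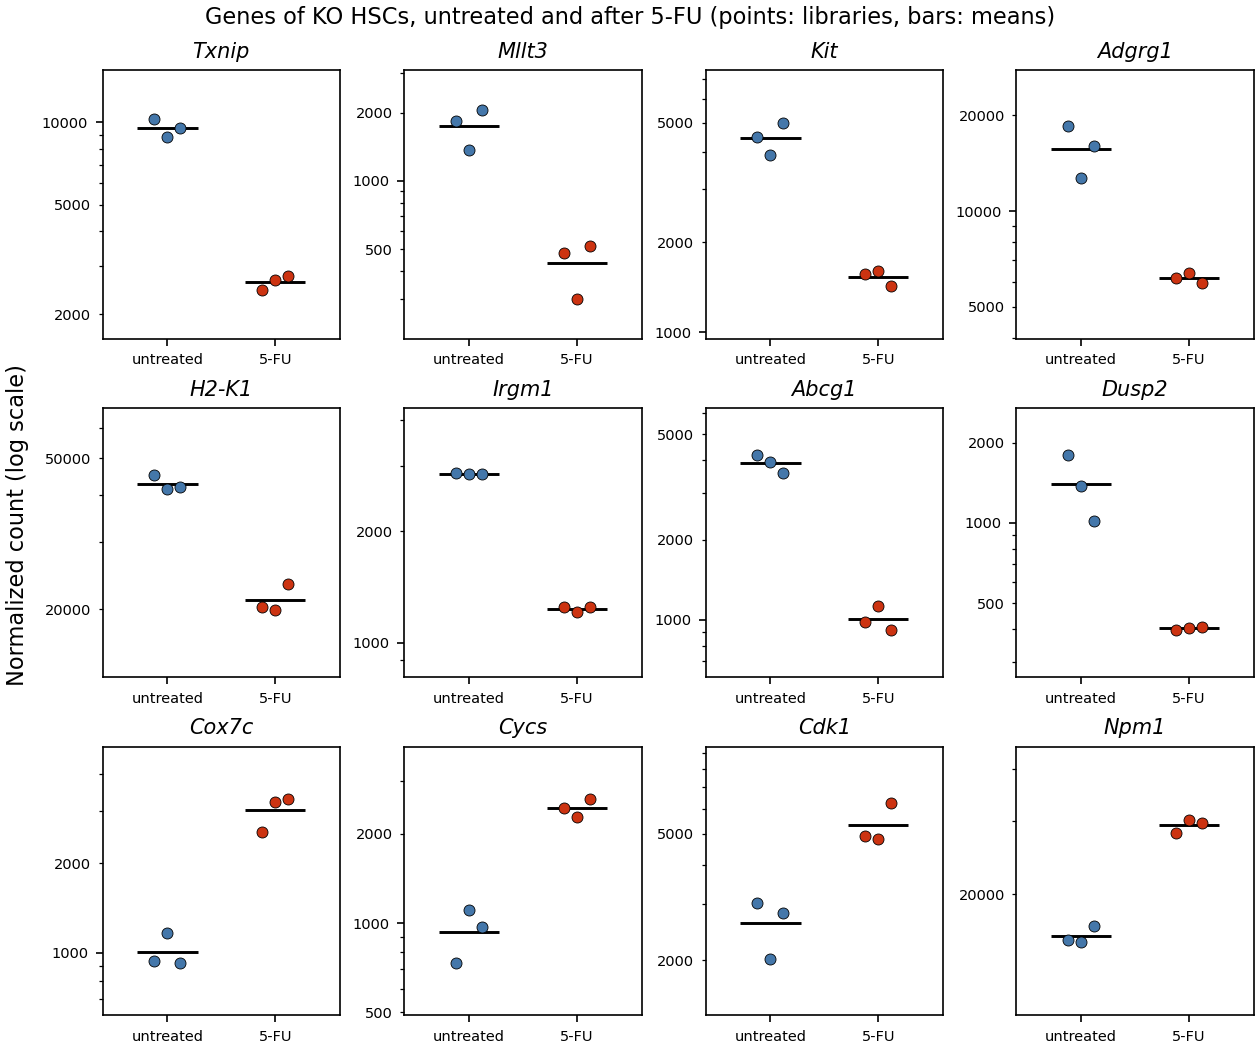
Normalized counts (y axis, log scale) of 12 genes in the 3 untreated and the 3 treated KO libraries, each point 1 library and each bar the group mean. In each panel the 2 groups of libraries do not overlap.

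Txnip had the smallest p-value of all named genes but Gm29216. This gene encodes an inhibitor of thioredoxin and of glucose uptake that is known to hold HSCs at rest. Its normalized counts were 10291, 8811 and 9515 in untreated and 2440, 2673 and 2749 in treated KO libraries. The mean was 3.64-fold lower and each group lay within a narrow range (log2 difference −1.72, SE 0.13; limma, adjusted p = 2.12e-06). Txnip was called in every alternative fit, the one with the year term included. Of 26 tested CDK inhibitor and quiescence genes, 3 fell and 0 rose, with a median of −0.33, and the 3 stayed called without any single KO library. The other 2 that fell were Zfp36, whose product destabilizes AU-rich mRNAs (log2 difference −1.29; limma, adjusted p = 0.00284), and the growth suppressor gene Ndn (log2 difference −1.24; limma, adjusted p = 0.00691).

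Of the class I histocompatibility genes, part fell and none rose. They encode the molecules that present peptides to cytotoxic T cells, and 9 of 21 tested genes of class I and of peptide loading were lower after 5-FU and 0 higher, with a median of −0.55 and 11 of 21 without overlap, where 28.8% of all genes had none. The count was 6 without A5, without A8 or without D6 and 7 without A6, D4 or D5. H2-K1 gave 45032, 41485 and 41839 normalized counts without and 20298, 19907 and 23333 with 5-FU, a 2.02-fold lower mean (log2 difference −1.0, SE 0.12; limma, adjusted p = 0.000253). H2-T23, which encodes the non-classical molecule Qa-1, gave 9756, 12328 and 9335 counts without and 3577, 3603 and 4663 with 5-FU, 2.65-fold lower on average (log2 difference −1.32; limma, adjusted p = 0.000286). B2m, the light chain shared by all class I molecules, gave 79064, 107941 and 86855 counts without and 56195, 56179 and 58160 with 5-FU. The treated libraries were nearly equal and all below the untreated ones (log2 difference −0.67; limma, adjusted p = 0.0094). H2-Q6 and H2-Q7 also fell, by 1.30 and 0.99 on the log2 scale, and as near-identical copies they may share reads.

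Class II genes, which present peptides to helper T cells, were lower as well, with 7 of 12 tested below the untreated level past the threshold, 0 above it and a median of −0.92. The count was 3 without A5, 4 without A6 or without D5 and 5 without A8, D4 or D6. H2-Aa gave 2755, 4951 and 1555 normalized counts without and 215, 297 and 765 with 5-FU. The untreated libraries varied but all lay above the treated ones, and the mean was 7.25-fold lower (log2 difference −2.13, SE 0.35; limma, adjusted p = 0.00213). Its partner chain gene H2-Ab1 gave 3481, 4186 and 2407 counts without and 1315, 1626 and 1627 with 5-FU (log2 difference −0.95; limma, adjusted p = 0.00583). H2-DMb1, a peptide exchange factor gene, fell by 1.23 (adjusted p = 0.00437, limma). B cells and macrophages also express these genes, and the values of their markers are given with those of other cell types.

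Among interferon response genes, which cells switch on against viruses, more members fell than rose. Of 73 tested, 18 fell and 2, Irf8 and Eif2ak2, rose, with a median of −0.44 and a summed normalized count of 178500 to 188100 without and 98400 to 115500 with 5-FU. Both rises depended on the fit: Irf8 was not called in the fit on the 6 KO libraries alone or without A6, D4, D5 or D6 (highest adjusted p 0.115), and Eif2ak2 was not called in 12 of 25 alternative fits, 5 of them without 1 KO library (highest adjusted p 0.176). Ifitm1, a membrane protein gene that restricts virus entry, gave 9386, 15587 and 20203 counts without and 3171, 2760 and 3123 with 5-FU. The treated libraries were alike, and the mean was 4.99-fold lower (log2 difference −2.12, SE 0.20; limma, adjusted p = 4.35e-05). Irgm1, an immunity-related GTPase gene needed for HSC maintenance, gave 2870, 2858 and 2865 counts without and 1248, 1211 and 1247 with 5-FU. Within each group the libraries were nearly equal, 2.32-fold apart (log2 difference −1.01; limma, adjusted p = 0.00156). Ube2l6, which conjugates the ubiquitin-like modifier ISG15, fell by 1.04, Ly6e by 0.77 and Rtp4 by 1.46 on the log2 scale (limma, adjusted p from 0.00156 to 0.00221). With limma-voom on the recovered reads 11 in place of 20 members were called, and as many without A5 or without A6, while 13 were called without D4 and without D6.

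The interferon-stimulated response element, the site that STAT and IRF complexes bind, was searched as GAAA, any 2 bases and GAAA on both strands in the 250 bases before the RefSeq start of each gene. It was found in 20 of 54 interferon list genes with a promoter in the RefSeq table (37.0%), against 3.39% of 9505 tested genes and 2.98% of 32851 promoters. Within the list the share was the same in genes that fell (5 of 13, 38.5%) and in genes not called (15 of 39, 38.5%). Among all genes that fell, 24 of 313 (7.67%) held a match, and among all that rose, 7 of 259 (2.70%). A match describes the letters and is no evidence of binding. The promoters of 3 genes that fell are shown 5′ to 3′ on the strand of the gene (GRCm38.p6) to show where the element lies, with the match in capitals, which reads as its reverse complement in H2-T23. They are Irgm1 at chr11:48871421-48871670 on the minus strand, with 2 overlapping matches from 30 bases before the start, B2m at chr2:122147437-122147686 on the plus strand, with a match 139 bases before it, and H2-T23 at chr17:36032702-36032951 on the minus strand, with a match 124 bases before it.
Irgm1: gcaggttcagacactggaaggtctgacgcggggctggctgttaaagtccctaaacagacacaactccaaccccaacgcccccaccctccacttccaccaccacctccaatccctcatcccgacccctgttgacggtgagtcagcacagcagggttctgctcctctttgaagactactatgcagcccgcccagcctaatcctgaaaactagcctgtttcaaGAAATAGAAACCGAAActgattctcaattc
B2m: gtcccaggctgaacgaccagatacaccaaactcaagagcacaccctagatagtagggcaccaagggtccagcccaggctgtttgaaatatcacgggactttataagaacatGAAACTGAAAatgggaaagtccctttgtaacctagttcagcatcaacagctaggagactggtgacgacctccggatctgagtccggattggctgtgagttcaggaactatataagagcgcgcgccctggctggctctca
H2-T23: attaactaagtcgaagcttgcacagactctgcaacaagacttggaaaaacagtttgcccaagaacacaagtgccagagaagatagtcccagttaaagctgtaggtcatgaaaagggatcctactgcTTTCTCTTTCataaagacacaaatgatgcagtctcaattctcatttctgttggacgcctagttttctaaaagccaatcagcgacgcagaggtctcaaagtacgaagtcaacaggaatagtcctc

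Subunits of the respiratory chain and ATP synthase were higher after 5-FU. Of 77 nuclear genes for oxidative phosphorylation, 32 rose and 1, Cox7a2l, fell, with a median of 0.51, and 76 of 77 differences were above 0. The call of Cox7a2l was lost without A5 (adjusted p = 0.0618). Their summed normalized count was 332400 to 370000 in untreated and 473200 to 538100 in treated KO libraries. By complex, 11 of 36 genes of complex I rose, 0 of 4 of complex II (3 at an unadjusted p below 0.05, 0 with limma-voom), 6 of 10 of complex III with cytochrome c, 9 of 12 of complex IV and 6 of 15 of ATP synthase. Of the list, 13 genes were called without D4, 15 without A8, 16 without D6 and 17 without A5 or without A6. Cox7c, a subunit of complex IV, gave 935, 1163 and 923 normalized counts without and 2544, 3227 and 3298 with 5-FU, 3.00-fold higher on average and with no overlap (log2 difference 1.30, SE 0.18; limma, adjusted p = 0.000678).

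Cycs, which encodes cytochrome c, the electron carrier that also triggers apoptosis, gave 734, 1105 and 967 normalized counts without and 2447, 2279 and 2620 with 5-FU. The mean was 2.62-fold higher (log2 difference 1.13, SE 0.18; limma, adjusted p = 0.0019). Ndufa4, a subunit of complex IV, gave 3815, 4816 and 4335 counts without and 8792, 9466 and 8760 with 5-FU, 2.08-fold higher (log2 difference 1.00; limma, adjusted p = 0.00182). Cox5a, Cox6b1 and the ATP synthase gene Atp5o rose by 1.01, 0.86 and 0.71 on the log2 scale (limma, adjusted p from 0.00182 to 0.00326). Respiratory chain genes have processed pseudogenes that can take or give reads. Of 13 mitochondrially encoded genes 2 rose (0 without A5, A6, D4 or D6, 1 without A8), with a median of 0.19, and of 23 TCA cycle genes 2 rose, with Mdh2, a malate dehydrogenase gene, at a log2 difference of 0.78 (limma, adjusted p = 0.00948) and as the only call of that list in fits without 1 KO library other than D5. Of 76 mitochondrial ribosomal protein genes 8 rose and 0 fell, with a median of 0.29, among them Mrpl20 and Mrps14 at 0.83 and 0.85 (limma, adjusted p = 0.00653 and 0.00694), and 2 to 4 of the 8 were called without any single library but D5. Fatty acid oxidation genes gave 1 of 23 higher and 0 lower, with a median of −0.17.

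Part of the proteasome genes rose. The proteasome degrades ubiquitinated proteins, and 12 of its 34 subunit genes rose and 0 fell after 5-FU, with a median of 0.46 and 33 of 34 differences above 0. Of the 14 genes of the core particle 8 rose. The count of 12 was 4 without A8 or without D6, 5 without A5 or without D4 and 6 without A6. Psmb7, a catalytic core subunit gene, gave 3368, 3600 and 3292 normalized counts without and 5560, 5943 and 6308 with 5-FU, 1.74-fold higher with no overlap (log2 difference 0.73, SE 0.14; limma, adjusted p = 0.00453). Psma3 and Psmb3, also of the core, rose by 0.72 and 0.66 (limma, adjusted p = 0.00486 and 0.00542). Among 32 heat shock and chaperone genes 2 rose and 1 fell: Hspe1 and Hspd1, which encode the paired chaperones of the mitochondrial matrix, rose by 1.11 and 0.83 on the log2 scale (limma, adjusted p = 0.000898 and 0.00675). The ubiquitin gene Ubb gave 82571, 89001 and 88372 counts without and 45025, 47149 and 60861 with 5-FU and fell by 0.77 (limma, adjusted p = 0.00324).

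Genes of mitosis were higher in treated KO cells. Of 53 tested mitosis and G2/M genes, 11 rose and 0 fell, with a median of 0.63 and 51 of 53 differences above 0, and their summed normalized count was 72320 to 86620 without and 131700 to 154700 with 5-FU. The count of 11 was 7 without A8. Cdk1, the kinase that drives entry into mitosis, gave 3028, 2013 and 2808 counts without and 4934, 4796 and 6271 with 5-FU. Every treated library was above every untreated one, 2.04-fold on average (log2 difference 0.94, SE 0.18; limma, adjusted p = 0.00454). Kif20b, a kinesin gene of cytokinesis, gave 1243, 1719 and 1337 counts without and 4165, 3133 and 4939 with 5-FU, 2.85-fold higher (log2 difference 1.29; limma, adjusted p = 0.000898). Birc5, which encodes survivin, rose by 1.12, the cyclin gene Ccnb2 by 1.06 and the kinetochore motor gene Cenpe by 1.27 on the log2 scale (limma, adjusted p from 0.00302 to 0.00866). The condensin subunit gene Ncapg, which packs chromosomes for mitosis, gave 788, 814 and 294 counts without and 2780, 2565 and 2386 with 5-FU (log2 difference 1.64; limma, adjusted p = 0.00156). Of 33 clustered histone genes, which are read in S phase, 3 rose and 0 fell, with Hist1h1b at 1.78 (limma, adjusted p = 0.00133), and histone transcripts share sequence and mostly lack the poly(A) tail that the protocol selects.

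The cell cycle gene homology region, a promoter element of late cell cycle genes, was searched as TTTGAA on both strands in the same 250 bases. It was present in 15 of 43 mitosis genes with a promoter in the table (34.9%) and in 5 of 11 that rose (45.5%), against 13.0% of 9505 tested genes and 16.0% of all promoters. The promoters of Cdk1 and Ccnb2 are shown as above to place the element, with Cdk1 at chr10:69352913-69353162 on the minus strand, holding 2 matches of which the first lies 71 bases before the start, and Ccnb2 at chr9:70421555-70421804 on the minus strand, with a match 167 bases before it.
Cdk1: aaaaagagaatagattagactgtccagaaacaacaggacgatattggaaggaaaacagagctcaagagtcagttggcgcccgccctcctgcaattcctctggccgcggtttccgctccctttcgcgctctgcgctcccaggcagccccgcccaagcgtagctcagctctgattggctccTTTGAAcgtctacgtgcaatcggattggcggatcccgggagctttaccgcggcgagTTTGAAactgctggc
Ccnb2: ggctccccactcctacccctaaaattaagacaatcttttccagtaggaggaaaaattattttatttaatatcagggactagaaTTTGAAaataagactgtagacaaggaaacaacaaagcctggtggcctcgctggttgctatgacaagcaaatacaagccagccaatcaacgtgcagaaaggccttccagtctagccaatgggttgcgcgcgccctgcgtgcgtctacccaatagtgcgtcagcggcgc

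In the lists of DNA replication and nucleotide metabolism every called member was higher. DNA replication and G1/S genes gave 4 of 51 higher and 0 lower, with a median of 0.28, and each of the 4 calls was lost when single KO libraries were left out. Among 28 genes that handle fluorouracil and pyrimidines 5 rose and 0 fell, with a median of 0.34 (2 called without A6, 3 without A8 or without D6). Dut, whose product dUTPase clears dUTP and its fluorinated form, gave 6557, 5603 and 4981 normalized counts without and 10334, 11644 and 13201 with 5-FU, 2.05-fold higher with no overlap (log2 difference 0.99, SE 0.19; limma, adjusted p = 0.00494). Nme1, a nucleoside diphosphate kinase gene, gave 4529, 5207 and 4407 counts without and 8414, 7839 and 8420 with 5-FU (log2 difference 0.76; limma, adjusted p = 0.00379). De novo purine synthesis gave 3 of 14 genes higher, with a median of 0.15 and all 3 calls lost when certain KO libraries were left out singly. Serine and one-carbon folate enzymes gave 2 of 14 higher, with the mitochondrial folate enzyme gene Mthfd2 at 1.18 (limma, adjusted p = 0.00708) and a median of 0.37, and 1 was called without A5 or D6.

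Ribosome biogenesis genes gave 6 of 50 higher and 0 lower (2 called without A5, 3 without A8), with a median of 0.34, while cytosolic ribosomal protein genes gave 2 of 78 higher and 1 lower, with a median of 0.00. Npm1, which encodes the nucleolar chaperone nucleophosmin, gave 15546, 15345 and 16786 normalized counts without and 28174, 30260 and 29655 with 5-FU. The groups were tight and 1.85-fold apart (log2 difference 0.87, SE 0.11; limma, adjusted p = 0.000353). Ncl, which encodes nucleolin, rose by 0.84 (limma, adjusted p = 0.000768), and the ribosomal protein gene Rpl27 by 1.07 (limma, adjusted p = 0.00273). Of 29 genes of the MYC network, 6 rose and 0 fell, with a median of 0.26, and Npm1, Ncl, Hspe1, Hspd1 and Nme1 are 5 of these 6. Splicing factor genes gave 5 of 40 higher, with Snrpe at 0.88 (limma, adjusted p = 0.00951) and a median of 0.25, and actin cytoskeleton genes gave 5 of 42 higher, with a median of 0.16. These counts of 5 were 1 without A6 or D4, 2 without A5 and 3 without D6 for splicing, and 1 without A5 or D6 and 2 without A6 for actin. Only 1 ribosomal protein gene, Rpl27, was called in each fit that left out 1 KO library. The prolyl isomerase gene Ppia, among the most abundant transcripts that rose, gave 60520, 62812 and 58016 counts without and 85354, 91547 and 101743 with 5-FU (log2 difference 0.61; limma, adjusted p = 0.00235).

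**Figure D4:**
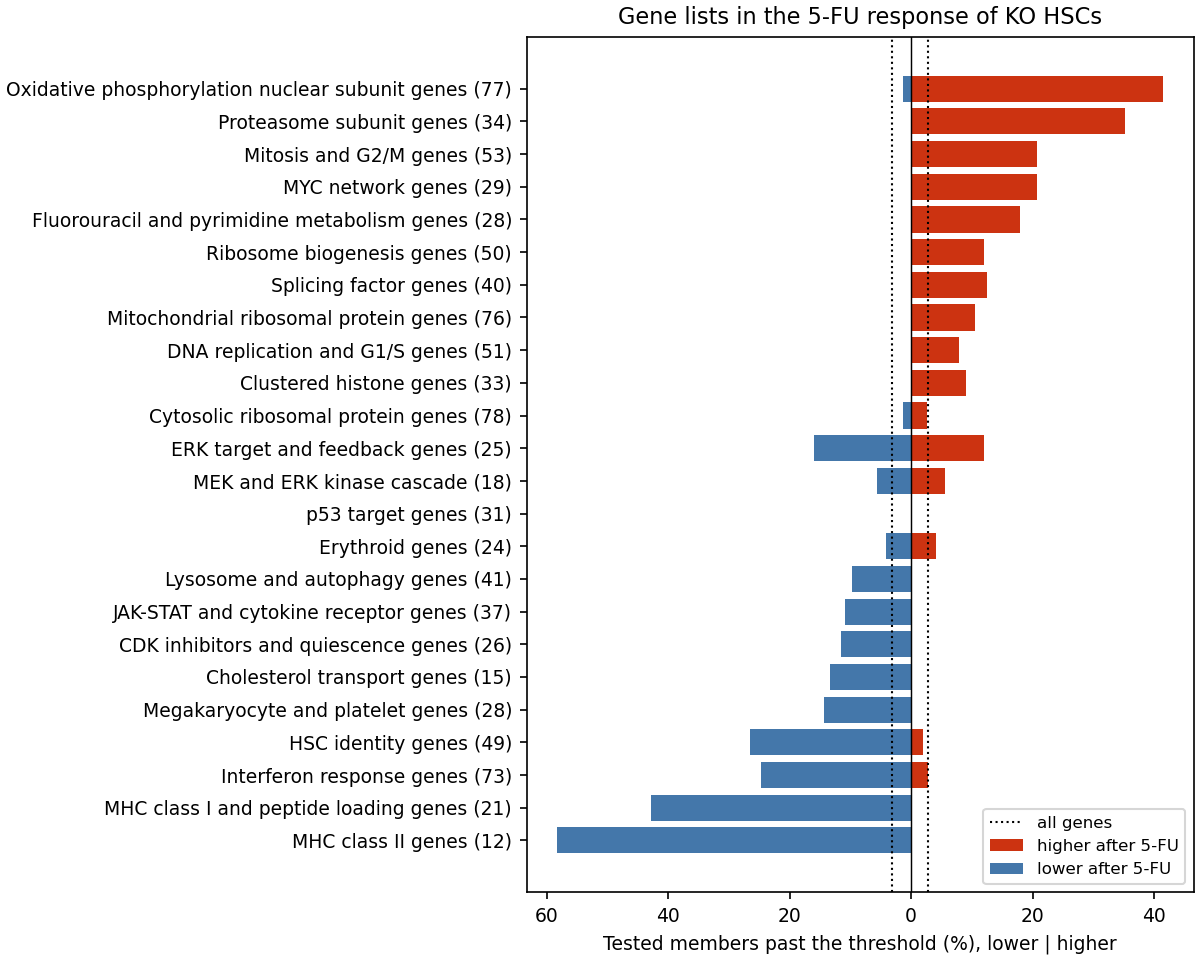
Share of tested members (x axis, percent) that rose (right) or fell (left) past the threshold in KO cells after 5-FU, for 24 gene lists (y axis, tested members in brackets). Dotted lines mark the shares over all genes, 2.78% higher and 3.14% lower.

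In the cholesterol transport, sterol synthesis and lysosome lists every called gene was lower, with 2 to 4 calls a list. The fatty acid oxidation list, also of lipid genes, had 1 higher and 0 lower. The counts below are read against 2.78% higher, 3.14% lower and 5.92% called over all genes. With so few calls a list, the distance from these shares was not tested. Abcg1, a pump that moves cholesterol out of cells, gave 4168, 3939 and 3576 normalized counts without and 985, 1125 and 914 with 5-FU, a 3.86-fold lower mean with tight groups (log2 difference −1.63, SE 0.20; limma, adjusted p = 0.000267). Apoe, the apolipoprotein gene, gave 15223, 13003 and 15873 counts without and 7461, 5734 and 7878 with 5-FU (log2 difference −1.03; limma, adjusted p = 0.00153). These were the 2 of 15 cholesterol transport genes that fell, with 0 higher and a median of −0.40. Sterol synthesis genes gave 3 of 24 lower and 0 higher, with a median of −0.28, and limma-voom called 0 of them. Lysosome and autophagy genes gave 4 of 41 lower and 0 higher, with a median of −0.32, and limma-voom again called 0. Without A6, 0 sterol and 1 lysosome gene were called, without A5 1 and 1, without D4 1 and 2, without A8 1 and 3, without D5 1 and 5, and without D6 3 and 1. Glycolysis genes gave 1 of 25 higher and 2 lower: the aldolase gene Aldoc gave 1255, 965 and 587 counts without and 1.34, 34.2 and 1.30 with 5-FU (log2 difference −2.36; limma, adjusted p = 0.000253), and the lactate dehydrogenase gene Ldhb fell by 1.39 (limma, adjusted p = 0.00221). Antioxidant genes moved both ways, 2 of 29 higher and 2 lower, with Prdx1 and Txn1, the peroxiredoxin and thioredoxin genes, higher by 0.64 and 0.68 (limma, adjusted p = 0.00537 and 0.00689), and only these 2 were called without A5, A6, D4 or D6.

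Called members of signalling lists were 2 to 6 a list, apart from 1 in the PI3K list, and their shares are read against the 5.92% of all genes called. In the JAK-STAT and cytokine receptor list 4 of 37 fell and 0 rose (10.8% called), with Kit among them and a median of −0.24 (2 called without A5 or without D6). NF-kB pathway genes gave 2 of 28 lower (7.14%), of which Nfkbia, the gene of the inhibitor IκBα, gave 4554, 4328 and 5063 normalized counts without and 1516, 1362 and 2254 with 5-FU (log2 difference −1.29; limma, adjusted p = 0.00138). TGF-beta and BMP pathway genes gave 2 of 28 higher and 2 lower (14.3%). Id1, a BMP target that blocks bHLH factors and is known to rise in HSCs called into division, gave 198, 0.818 and 150 counts without and 1025, 1271 and 1326 with 5-FU (log2 difference 2.07; limma, adjusted p = 0.00133). The untreated libraries varied, and all treated ones lay above them. Adhesion and homing genes gave 2 of 32 higher and 4 lower (18.8%), and the tetraspanin genes Cd81 and Cd82 fell by 0.90 and 1.00 (limma, adjusted p = 0.00235 and 0.00545). Integrated stress response genes gave 3 of 31 higher and 2 lower (16.1%), and PI3K, AKT and FoxO genes gave 1 of 26 higher (3.85%). Calls in the stress response list numbered 1 without A6 and 3 without A5 or D5, in the adhesion list 3 without A6, in the TGF-beta list 2 without A5 and in the NF-kB list 1 without A5 or A6.

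Large differences were also seen in genes outside these lists. Gem, a small GTPase gene that restrains calcium channels, gave 90.3, 85.8 and 143 normalized counts without and 3879, 7355 and 8658 with 5-FU. The treated libraries were all above 3800 counts, and the mean was 62.4-fold higher (log2 difference 4.04, SE 0.64; limma, adjusted p = 0.00156). On log2 counts with a pseudocount of 0.5 or 1, and with TMM scaling, the call was lost (highest adjusted p 0.101). Gch1, which starts tetrahydrobiopterin synthesis, gave 1131, 206 and 831 counts without and 2488, 2480 and 4052 with 5-FU (log2 difference 1.75; limma, adjusted p = 0.00533), and Dok2, an adaptor gene that dampens tyrosine kinase signals, rose 4.30-fold (log2 difference 1.54; limma, adjusted p = 0.00221). Tespa1, a gene of lymphocyte receptor signalling, had at most 1 read in the untreated libraries and 391, 279 and 442 normalized counts in the treated ones (limma, adjusted p = 0.000353).

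On the lower side, Sult1a1, a sulfotransferase gene, gave 1710, 2244 and 3844 normalized counts without and 102, 119 and 85.9 with 5-FU, a 25.4-fold lower mean. Its call (log2 difference −2.82; limma, adjusted p = 0.000353) was lost with limma-voom (adjusted p = 0.066). Tsc22d3, the glucocorticoid-induced gene GILZ, gave 5519, 4030 and 6244 counts without and 1053, 922 and 1318 with 5-FU, 4.80-fold lower (log2 difference −1.93, SE 0.22; limma, adjusted p = 0.000253). Pik3ip1, whose product inhibits PI3K, gave 2428, 1448 and 1829 counts without and 146, 399 and 385 with 5-FU, 6.13-fold lower (log2 difference −1.83; limma, adjusted p = 0.000267). Pdzk1ip1, a gene expressed in the most primitive HSCs, gave 3490, 3525 and 4301 counts without and 634, 915 and 1150 with 5-FU, 4.19-fold lower (log2 difference −1.73; limma, adjusted p = 0.000253). Trim47, a ubiquitin ligase gene, fell 12.3-fold with treated libraries of 101, 87.3 and 84.6 counts (log2 difference −1.91; limma, adjusted p = 0.000768). Ypel3, a growth suppressor gene, gave 1207, 1387 and 1393 counts without and 175, 224 and 186 with 5-FU, 6.82-fold lower (log2 difference −1.72; limma, adjusted p = 0.000275).

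In 6 further lists 0 or 1 member was called, where 5.92% of all genes were, so that in lists of this size counts of 0 or 1 are near the background. Of 31 tested p53 target genes, 0 passed in limma and 7 had an unadjusted p below 0.05, the fit on the 6 KO libraries alone and limma-voom also called 0, and the list median was −0.05. The smallest p-values belonged to Trp53i13 (log2 difference −0.79; limma, adjusted p = 0.0744), Trp53inp1 (−0.88; adjusted p = 0.0923) and Mdm4 (−0.54; adjusted p = 0.116). BCL2 family genes gave 0 calls among 14, with 1 at an unadjusted p below 0.05 and 0 with limma-voom, aminoacyl-tRNA synthetase genes gave 0 among 20, with 4 and 0, and hypoxia genes gave 0 among 17, with 6 and 0. DNA repair and Fanconi genes gave 1 of 46 higher (2.17%), and chromatin regulators 1 of 38 (2.63%). Throughout, counts at an unadjusted p below 0.05 are given without the share over all genes. They therefore do not show whether a list lies above the background.

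Markers of other blood and marrow cells were measured as well. Of the defining markers, Mpo was at 0 in 5 of the 6 KO libraries, and Alas2, Elane, Camp and Ngp at 0 in 3. The summed normalized count of 9 tested B cell genes was 1327 to 1724 without and 721.6 to 1017 with 5-FU, of 9 T and NK cell genes 2571 to 4204 and 2351 to 4425, and of 11 endothelial and stromal genes 4123 to 5607 and 5077 to 5673. None of these 3 lists had a member past the threshold (limma), with 2, 4 and 0 members at an unadjusted p below 0.05 and 0 with limma-voom. Cd79b, a B cell receptor gene, gave 1200, 1320 and 1630 counts without and 536, 631 and 777 with 5-FU (log2 difference −0.80; limma, adjusted p = 0.0694). Most of the B cell sum thus came from Cd79b. Most of the T and NK cell sum came from Nkg7, at 1480 to 3450 counts without and 1700 to 3810 with 5-FU. Class II genes moved in the same direction as Cd79b, and the part of B cells in their difference was not tested. Cd79a and Pax5 were not analysed here.

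Monocyte, macrophage and dendritic genes gave 3 of 14 higher and 1 lower, with 2 calls in each fit that left out 1 KO library. The list median was 0.61, and 11 of 14 differences were above 0. Their summed count moved the other way, from 16010 to 18120 without to 9285 to 10080 with 5-FU, and most of it came from Lyz2. This lysozyme gene fell from 16780, 15174 and 17486 to 7866, 8772 and 8705 normalized counts (log2 difference −0.93, SE 0.12; limma, adjusted p = 0.000459). The 3 that rose were C1qc, Irf8 and Mpeg1. C1qc, a complement gene of macrophages, gave 0, 0 and 1.06 counts without and 134, 48.3 and 212 with 5-FU (limma, adjusted p = 0.011), a call lost without A5 or without A8. Mpeg1 gave 0 counts in all 3 untreated libraries, and its call (limma, adjusted p = 0.04) was lost in each fit without 1 KO library and in 6 more alternatives, among them limma-voom, TMM scaling and the minimum of 50 counts (highest adjusted p 0.165). C1qa, a defining macrophage gene, gave 0 to 88.9 counts without and 46.0 to 183 with 5-FU, and Csf1r 0.818 to 1.84 and 4.72 to 53.7. Neutrophil and granule genes gave 2 of 11 lower, Lyz2 and the protease gene Prtn3 (log2 difference −0.85; limma, adjusted p = 0.00235), and S100a8 and S100a9 were at 94.8 to 202 and 35.2 to 95.2 counts without and at 9.11 to 29.5 and 2.69 to 5.90 with 5-FU. Megakaryocyte and platelet genes gave 4 of 28 lower and 0 higher, with Tbxas1 and Nfe2 at −1.33 and −0.90 (limma, adjusted p = 0.00573 and 0.0058) and a median of −0.31. Among 24 erythroid genes 1 rose and 1 fell, with a median of −0.02. The carbonic anhydrase gene Car2 fell by 1.16 (limma, adjusted p = 0.000768), and the beta globin gene Hbb-bt rose from 616, 103 and 721 to 2622, 3128 and 2215 counts (log2 difference 2.00; limma, adjusted p = 0.00133), a gene that shares sequence with its neighbour copy. Mast cell and basophil genes gave 1 of 6 lower, which was Kit.

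The smallest p-value belonged to Gm29216, an annotated pseudogene on chromosome 1 (24615706 to 24616197, minus strand, GRCm38) of 492 bases, of which 483 align to the mitochondrial gene mt-Co1 at 99.793% identity. Its normalized counts were 23739, 24440 and 12181 without and 24.2, 20 and 139 with 5-FU (log2 difference −5.89; limma, adjusted p = 1.05e-09), while the WT libraries held 19500 to 50300. Reads that fit both copies could have been counted on either, so the value is uncertain, and its cause was not tested.

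The response of WT cells was set beside that of KO cells by the interaction, the KO response minus the WT response, since the 2 responses share no library. In WT cells 858 genes passed (6.68%), 478 higher (3.72%) and 380 lower (2.96%). Of the genes that fell in KO, 90 also fell in WT, which is 22.3% of the KO list and 23.7% of the WT list, and 74 rose in both, 20.7% and 15.5%. The interaction was called for 365 genes (2.84%), with the KO response higher for 134 and lower for 231, and 167 of the 761 KO calls (21.9%) were among them. Treated WT libraries A3 and D4 are nearly alike (highest correlation within the group 0.988), and with their mean as 1 library 237 interactions were called, while leaving out single libraries gave 140 to 476.

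Of 53 mitosis genes, 11 rose in KO and 28 in WT, with medians of 0.63 and 0.97, and 0 had an interaction past the threshold in limma (14 at an unadjusted p below 0.05, 1 called with limma-voom), which does not show that the responses were alike. Of 12 class II genes, 7 fell in each genotype, with 1 interaction. Interferon response genes gave 11 of 73 lower and 3 higher in WT, with a median of −0.27. Class I and peptide loading genes gave 3 of 21 lower and 0 higher in WT, with a median of −0.19. The interferon and class I lists each had 3 interactions, all with a lower KO response. Oxidative phosphorylation genes gave 10 of 77 higher in WT, with a median of 0.26, and 3 interactions with a higher and 1 with a lower KO response. Proteasome genes gave 1 of 34 higher in WT, with a median of −0.05, and 6 interactions, all with a higher KO response. All 6 MYC network genes that rose in KO had an interaction in that direction. They were chosen by the KO response, which enters the interaction, and of all 761 KO calls 21.9% had one. In WT, 0 of 29 were called with limma (10 at an unadjusted p below 0.05) or limma-voom. Npm1, for example, differed by −0.04 in WT and gave an interaction of 0.91 (limma, adjusted p = 0.006), and Selenoh, a selenoprotein gene of the nucleolus, rose by 0.98 in KO and differed by −0.34 in WT (interaction 1.32; limma, adjusted p = 0.006). Cacybp, an adaptor of ubiquitin ligases, rose by 1.04 in KO and differed by −0.37 in WT (interaction 1.41; limma, adjusted p = 0.00191).

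In the other direction stood platelet genes. In WT cells 16 of 28 megakaryocyte and platelet genes rose after 5-FU, with a median of 1.1, and 17 of 28 had an interaction with a lower KO response, against 1.80% of all genes. Gp1bb, a platelet receptor subunit gene, differed by −0.50 in KO (limma, adjusted p = 0.24) with an interaction of −2.39 (adjusted p = 0.0012), and Pf4, the platelet factor gene, by 1.05 in KO (adjusted p = 0.0973) with an interaction of −3.07 (adjusted p = 0.00505). HSC genes with a platelet bias or raised with age gave 12 of 34 such interactions (1 rose and 3 fell in KO), cytosolic ribosomal proteins 10 of 78, HSC identity genes 7 of 49 and erythroid genes 6 of 24. Txnip differed by −0.16 in WT, against a fall of 1.72 in KO (interaction −1.56; limma, adjusted p = 0.000286). Apoe rose by 1.78 in WT and fell by 1.03 in KO, the opposite way (interaction −2.81; limma, adjusted p = 3.51e-06). Clca3a1 likewise rose by 2.63 in WT and fell by 1.1 in KO (interaction −3.72; limma, adjusted p = 1.01e-05), the KO call being lost with limma-voom (adjusted p = 0.0802). H2-T23 differed by 0.00 in WT and gave an interaction of −1.32 (limma, adjusted p = 0.00634), and Adgrg1 differed by −0.02 in WT with an interaction of −1.26 (limma, adjusted p = 0.00587). Gem differed by −0.21 in WT with an interaction of 4.25 (limma, adjusted p = 0.0156). Its counts in single WT libraries ranged from 0 to 2010. The WT mean was 258 without and 526 with 5-FU, a change of the opposite sign, so the WT response of Gem is uncertain.

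**Figure D5:**
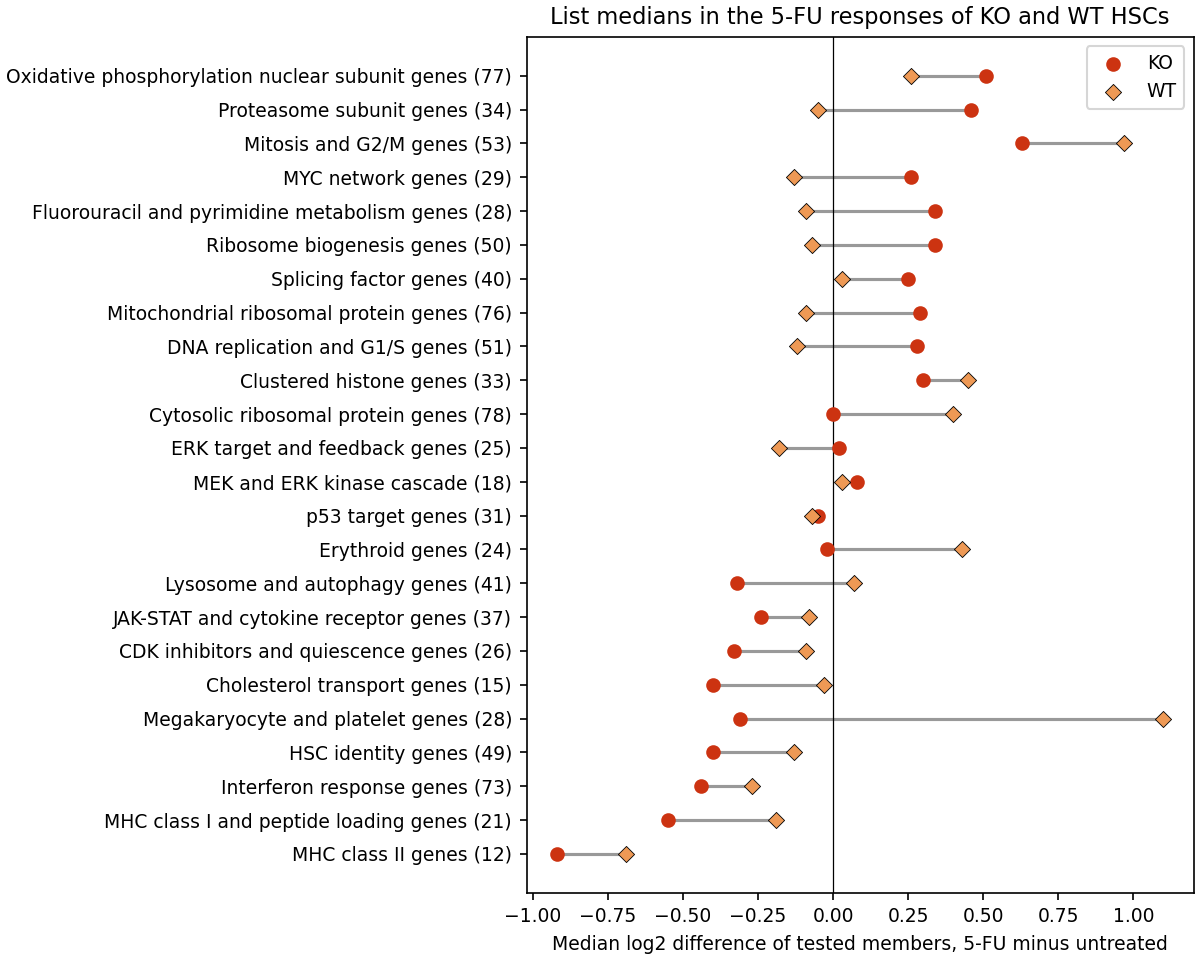
Median log2 difference (5-FU minus untreated, x axis) of the tested members of 24 gene lists (y axis), with KO and WT cells as separate points joined by a line. Platelet genes are at −0.31 in KO and 1.1 in WT, and mitosis genes at 0.63 and 0.97.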

How the data were processed

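The authors deposited 1 table of normalized values on a log2 scale, made by variance stabilization in DESeq2 after trimming with Trimmomatic and alignment to mm10 with Bowtie 1.1.1, per the submitters' processing notes. The sources used here name neither the counting tool nor the annotation nor the strand setting. The transformation was inverted, which gave whole reads within 0.1 for 100% of values in all 13 libraries, and reads were divided by each library's size factor to give normalized counts. Totals of reads set the depth, and with 3 libraries a group the precision is limited by their number. Symbols and positions came from GENCODE M21 (GRCm38), and 147 of 13201 genes had none. The deposited log2 values of genes that reached 10 normalized counts in 3 or more libraries entered limma 3.58.1 in R 4.3.3, with 1 mean for each of the 4 groups over all 13 libraries, eBayes with a trend (residual df 9) and Benjamini-Hochberg adjustment over 12846 genes at 0.05. The script was tested on simulated data. Map2k1 also had an exact permutation test. The remaining steps ran in Python 3.11.15 with pandas 2.3.3, figures in matplotlib 3.10.9 and the permutation test in scipy 1.17.1.

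The comparison and its 52 gene lists were chosen with earlier results of these data known, so counts over lists carry no test of their own. Named genes were the cascade kinases, up to 15 per direction with the largest difference (mean count of at least 100, no overlap), up to 6 per list by smallest p, up to 8 per direction for the interaction, 5 per direction by abundance and the cell type markers, and the text gives a part of them; some genes are not reported here. Single members named beside a count of few calls (Cox7a2l, Eif2ak2) were picked after their values were seen. Alternatives were other filters, pseudocounts, scalings, variance models, thresholds, a year term, the 6 KO libraries alone, limma-voom, averaging of WT A3 and D4, and leaving out each library.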

Additional observations from a re-analysis of the deposited data

Results flagged for a closer look

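The genes listed here differed in their response between KO and WT cells by the interaction test (limma, Benjamini-Hochberg adjusted p below 0.05). Only genes named in the text were considered. Many of them were named for their KO response, which enters the interaction, so they do not stand for all 365 interactions. Their grouping below is description only. Values are the KO log2 response minus the WT log2 response. With the acquisition year as a term 199 interactions were called, against 365 without it.

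The KO response was higher for Gem by 4.25, the BMP target Id1 by 1.87, Tespa1 by 1.45 and Etv4 by 0.69. For Gem the WT libraries ranged from 0 to 2010 normalized counts, so its WT response is uncertain. It was higher by 1.41 for Cacybp and by 1.32 for Selenoh. Genes of ribosome formation and of the MYC network in this group were Npm1 at 0.91, Ncl at 0.68, Hspe1 at 1.00, Hspd1 at 1.20, Nme1 at 1.03 and Rpl27 at 1.13. The dUTPase gene Dut was at 1.03, the cytochrome c gene Cycs at 1.06 and the mitochondrial ribosomal gene Mrps14 at 1.15. The proteasome genes Psmb7, Psma3 and Psmb3 were at 0.86, 0.72 and 0.72. Prdx1 was at 0.73, Ppia at 0.60 and the macrophage gene C1qc at 1.36.

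The KO response was lower for the pseudogene Gm29216, at −6.53, for Clca3a1, at −3.72, for the platelet genes Pf4 and Gp1bb, at −3.07 and −2.39, and for Tbxas1, at −1.37. It was lower for the cholesterol transport genes Apoe and Abcg1, at −2.81 and −1.35. Regulators of growth and signalling followed, with Ypel3 at −2.21, Tsc22d3 at −1.79, Trim47 at −1.65, Txnip at −1.56, Nfkbia at −1.45, Ier3 at −1.33 and Pik3ip1 at −1.21. Surface proteins of HSCs in this group were Pdzk1ip1 at −1.56, Slamf1 at −1.30 and Adgrg1 at −1.26. Class I and interferon genes were H2-T23 at −1.32, H2-K1 at −0.90 and Ube2l6 at −1.10. The ubiquitin gene Ubb was at −0.80 and the lysozyme gene Lyz2 at −0.75.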

How the results depend on the processing

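Against 761 genes in the KO response, 7 were called with the year term, 408 with limma-voom on the recovered reads, 1466 with library weights, 281 at an adjusted p below 0.01, 1281 below 0.1 and 290 when a 2-fold difference was also asked. Leaving out single libraries gave 356 to 979. The fit on the 6 KO libraries alone called 1029 genes, 711 of them shared with the 761, and the remaining settings called 698 to 794. TMM scaling called 400 higher and 387 lower, where the main split was 357 and 404. For the WT response (858), the counts were 510 with A3 and D4 averaged, 219 with the year term, 1732 with library weights, 332 below 0.01, 1473 below 0.1, 357 with 2-fold and 464 to 990 without single libraries. For the interaction (365), they were 237 with A3 and D4 averaged, 199 with the year term, 864 with library weights, 66 below 0.01, 676 below 0.1 and 140 to 476 without single libraries. The cause of these shifts was not tested. Map2k1 turned to 0.18 with the year term (adjusted p = 0.958) and lay between −0.59 and −0.41 without single libraries. Other small differences that changed sign were those of Mapk3 (0.17 with the year term) and Map2k2 (−0.02 without A8 to 0.11 without A5). Medians near 0 did so too: the cascade list gave −0.01 without A5 to 0.21 without A8, erythroid genes −0.14 without A8 to 0.01 without D4, antioxidant genes 0.10 with the year term, and ERK targets −0.01 with the year term, −0.02 with the minimum of 50, and −0.04 to −0.03 without D4 or A5. TGF-beta genes gave 0.13 with the year term, 0.01 with quantile scaling and with limma-voom, and 0.03 to 0.08 without A6, A8, D4 or D6 (lowest −0.05 without A5). Of the 90 called genes described, 2 stayed called with the year term, 85 with limma-voom and 86 to 89 in fits without 1 KO library. The text gives only a part of the genes that the naming rule picked, so these shares do not stand for all 761 calls. No paired analysis was possible because the library names A and D are not shared between the KO groups.

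The median standard error of a log2 difference was 0.24, and 3 reads, the upper limit that a count of 0 allows, correspond to 2.45 to 4.03 normalized counts in the KO libraries.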
